A study of Mus musculus with 24 samples.

Results

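Chemokines are small secreted proteins that direct the migration of leukocytes, and their receptors are proteins that span the cell membrane, most of which signal through G proteins. The genes described here are the 61 protein-coding mouse genes, of 49585 gene identifiers counted, whose symbols name a CC, CXC or XC chemokine, a chemokine receptor or an atypical chemokine receptor, together with Cx3cl1, Cx3cr1 and Ccrl2. They comprise 37 ligands, 19 signalling receptors and 5 atypical receptors, and lie on 11 chromosomes of the GRCm38 build. The symbol rule also matched Cxcl11, annotated as a polymorphic pseudogene, and 2 pseudogenes of Ccl19, which are not among the 61.

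The 24 libraries, in 6 groups, were made from RNA of intact fat pads of male mice, all C57BL/6J. Wild-type mice received a low-fat diet with 10% of energy from fat or a high-fat diet with 60% for 20 weeks, and their subcutaneous adipose tissue (SAT) was taken (n = 4 each, called low-fat SAT and high-fat SAT below). Mice without Azin2 (Azin2-/-) and wild-type littermates all received the 60% fat diet for 8 weeks, and both SAT (5 wild-type, 3 Azin2-/-) and the epigonadal depot (GAT; 4 wild-type, 4 Azin2-/-) were collected. No group of the 8-week experiment was on a low-fat diet, and the sources used here do not give the age at the start. Azin2 encodes an antizyme inhibitor, a positive regulator of polyamine synthesis. Nothing in the labels beyond replicate numbers and animal marks states that libraries came from separate animals, so the p-values measure the spread between these libraries, which may in part be technical.

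Chemokines of the inflammatory class are made on demand by macrophages, stromal and endothelial cells and recruit monocytes, neutrophils and effector lymphocytes, whereas homeostatic chemokines position cells in resting tissue. In obese adipose tissue the family is best known for CCL2 and its receptor CCR2, which bring blood monocytes into the fat. Atypical receptors bind chemokines without signalling through G proteins, and take them up or carry them across cells.

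Each library held between 31957480 and 46621108 counts, and several stood apart from their groups. Azin2 was read at 6.73 to 11.5 CPM (counts scaled to a common library total) in Azin2-/- SAT and 14.6 to 25.95 CPM in wild-type SAT. Among GAT libraries labelled Azin2-/-, replicate 1 had 19.8 CPM of Azin2 and the other 3 had 12.7 to 14.8 CPM, while wild-type GAT libraries had 22.9 to 26.6 CPM. These are counts over the whole gene, and the sources used here do not say which part Azin2-/- mice lack. Adipoq, the adipocyte hormone gene, was read at 762.9 to 3182 CPM in every library. The library labelled low-fat SAT replicate 1 lacked the subcutaneous marker Hoxc10 (0.0469 CPM, where the rest of its group had 25.5 to 31.5 CPM). Tbx15, another such marker, was at 0.117 CPM, against 18.1 to 40.1 CPM in the rest. Mesothelium genes summed to 191.1 CPM in this library, 2.97 to 7.42 CPM in the rest of its group and 30.4 to 498.8 CPM in GAT. Which depot it came from was not tested. Its 7 epididymis genes summed to 24740 CPM. Wild-type GAT replicate 3 held 4584 CPM of those genes and every other library at most 0.7015 CPM. Skeletal muscle genes summed to 61190 CPM in Azin2-/- SAT replicate 2, 53770 CPM in wild-type SAT replicate 3, 20170 CPM in low-fat SAT replicate 5 and 6117 CPM in high-fat SAT replicate 6, against at most 1066 CPM elsewhere. Diet results are therefore given with and without low-fat replicate 1.

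The stretches of DNA just upstream of the genes are shown for the 5 members higher on the high-fat diet (below) that hold a match to the NF-kB consensus. The other members higher on that diet with a sequence at hand hold no match and are not shown. Cxcl14, the member with the smallest p between the depots in both genotypes, is shown as well and holds no match. Each line gives the 250 bases before the annotated start, 5′ to 3′ on the gene's strand, from RefSeq on GRCm38.p6, and capitals mark a match to the NF-kB consensus on either strand. NF-kB is the transcription factor best known for inducing inflammatory chemokines. Cxcl1 (chr5:90890995-90891244, plus strand) and its neighbour Cxcl2 (chr5:90903649-90903898, plus strand) encode ligands of CXCR2, Ccl9 (chr11:83578637-83578886, minus strand) a ligand of CCR1, Ccr1 (chr9:123968693-123968942, minus strand) and Ccr3 (chr9:124021721-124021970, plus strand) receptors, and Cxcl14 (chr13:56296552-56296801, minus strand) a homeostatic ligand.
Cxcl1: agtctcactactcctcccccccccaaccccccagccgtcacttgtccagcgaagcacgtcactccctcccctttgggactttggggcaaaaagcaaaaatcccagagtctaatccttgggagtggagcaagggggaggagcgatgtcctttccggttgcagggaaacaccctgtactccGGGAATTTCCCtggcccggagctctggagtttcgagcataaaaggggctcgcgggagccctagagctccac
Cxcl2: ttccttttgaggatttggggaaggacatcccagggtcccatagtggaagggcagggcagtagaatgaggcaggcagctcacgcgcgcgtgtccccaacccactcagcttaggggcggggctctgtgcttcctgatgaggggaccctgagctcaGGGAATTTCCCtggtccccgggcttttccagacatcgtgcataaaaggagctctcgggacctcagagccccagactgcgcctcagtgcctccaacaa
Ccl9: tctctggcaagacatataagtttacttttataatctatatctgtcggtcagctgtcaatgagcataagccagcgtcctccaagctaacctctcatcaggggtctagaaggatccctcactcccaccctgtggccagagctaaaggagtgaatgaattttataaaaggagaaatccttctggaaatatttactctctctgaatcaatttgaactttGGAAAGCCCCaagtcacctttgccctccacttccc
Ccr1: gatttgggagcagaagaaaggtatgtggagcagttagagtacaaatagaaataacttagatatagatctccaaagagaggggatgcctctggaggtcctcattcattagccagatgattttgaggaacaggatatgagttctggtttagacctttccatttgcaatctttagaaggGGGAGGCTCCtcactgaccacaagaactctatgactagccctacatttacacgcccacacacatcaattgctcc
Ccr3: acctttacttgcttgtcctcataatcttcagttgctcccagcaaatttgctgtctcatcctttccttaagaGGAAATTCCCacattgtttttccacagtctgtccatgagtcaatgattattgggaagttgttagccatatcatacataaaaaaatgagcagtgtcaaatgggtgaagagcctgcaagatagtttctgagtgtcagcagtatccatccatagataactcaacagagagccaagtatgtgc
Cxcl14: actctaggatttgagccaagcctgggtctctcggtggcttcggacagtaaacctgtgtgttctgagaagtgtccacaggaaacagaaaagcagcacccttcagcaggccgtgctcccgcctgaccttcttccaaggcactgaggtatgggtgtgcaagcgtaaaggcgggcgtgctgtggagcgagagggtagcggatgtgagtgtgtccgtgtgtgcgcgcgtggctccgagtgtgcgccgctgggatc

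Cxcl1 and Cxcl2 carry the same capital letters, 61 to 71 and 87 to 97 bases before their starts. RefSeq held such windows for 47 of the 61 members (56 windows). An NF-kB consensus was found in 12 of these 56 windows (21.4%) and in 7.25% of all 32851 mouse windows. Of the 10 members higher on the high-fat diet that have a window, 5 held it, the 5 shown above, and of the 22 other members tested for diet with a window, 3 held it (Ackr2, Ccrl2 and Cxcl10). The AP-1 motif TGANTCA, searched on both strands, was in 10.7% of the member windows and 6.75% of all windows, and TATAAA, also on both strands, in 26.8% and 12.4%. A match of letters is not evidence of a bound factor.

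Levels of the genes were compared per length, as normalised CPM per kilobase of exon, where normalised CPM are CPM scaled by factors for library composition. In each of the 6 groups the ligands Ccl6, Ccl11 and Cxcl12 were among the 6 of highest level. Ccl6, a macrophage ligand of CCR1, led in high-fat SAT (85.8 ± 10.1 per kilobase, SD, n = 4), wild-type SAT (48.0 ± 14.4, n = 5), wild-type GAT (72.6 ± 16.6, n = 4) and Azin2-/- GAT (151 ± 49.5, n = 4). Ccl11, an eotaxin that attracts eosinophils through CCR3, led in low-fat SAT (50.0 ± 10.25, n = 3, without replicate 1, and 38.55 ± 24.4 with it) and in Azin2-/- SAT (49.0 ± 6.25, n = 3). Cxcl14 was the second ligand of low-fat and Azin2-/- SAT but not among the leading 6 in either GAT group.

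Among receptors, the leading 3 were Ackr3, Cxcr4 and Ccr2 in every group except high-fat SAT, where Ackr1 took the place of Ccr2. Ackr3, the atypical receptor that removes CXCL12, led in every group except high-fat SAT, where Cxcr4, the signalling receptor of CXCL12, stood at 13.6 ± 1.66 and Ackr3 at 12.7 ± 0.575 per kilobase, a difference within their spread. Ackr3 reached 21.7 ± 4.502 per kilobase in wild-type GAT and 16.45 ± 2.03 in wild-type SAT.

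Many members were hardly read at all. Ccl21b, Ccl27b and Cxcl15 had 0 counts in each of the 24 libraries. The upper limit that 0 counts allow is 3 counts (95% confidence), or 0.0643 to 0.0939 CPM depending on the library, and covers counting error only. Another 11 members had under 100 counts over all libraries together: Ccl1, Ccl20, Ccl26, Ccr1l1, Ccr6, Ccr8, Cxcl17, Cxcl3, Cxcl5, Cxcr1 and Cxcr2. Cxcr2, the receptor of Cxcl1 and Cxcl2 on neutrophils, thus had 76 counts in all and Cxcr1 only 8. At the other end, 44 members were counted in every library. Ccl21a and Ccl27a have near-identical copies on chromosome 4, Ccl21b and Ccl27b among them, so their values may be split or lost between copies.

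**Figure D1:**
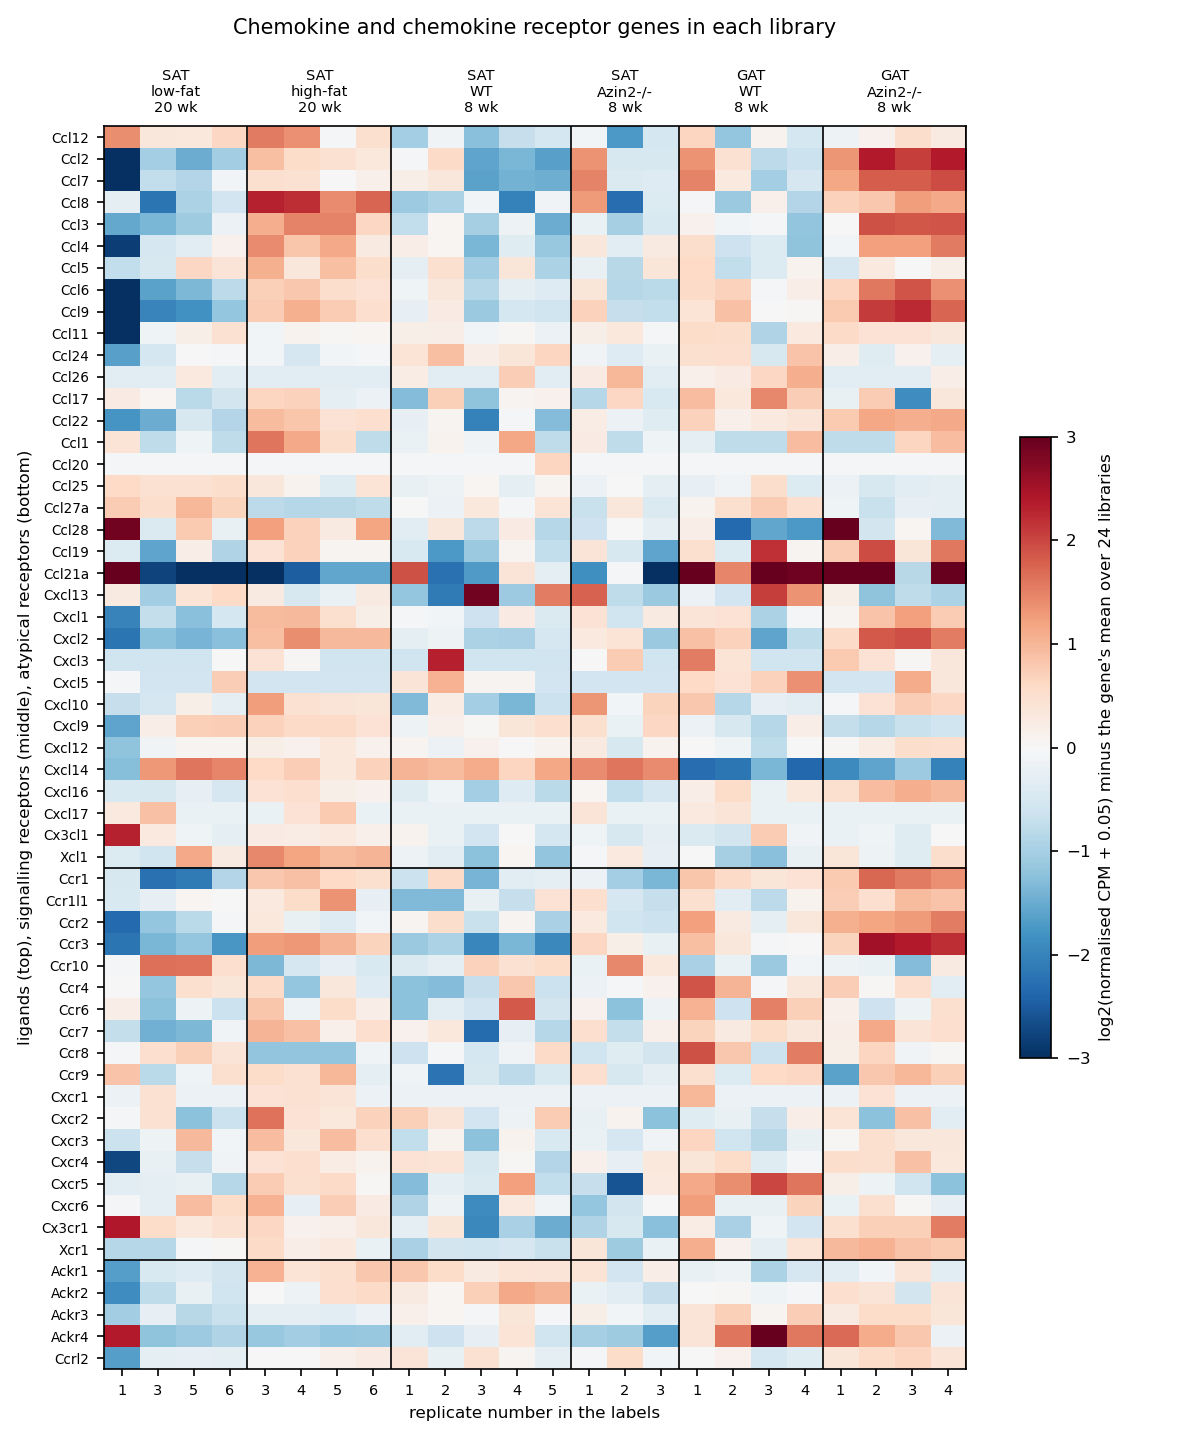
Heat map of 57 of the members with any count (rows) in the 24 libraries (columns, grouped, labelled by replicate number), as log2 of normalised CPM with 0.05 added, minus the mean of each gene over all libraries; colour is cut at 3 in either direction. Ccl6, Ccl8, Ccl9, Ccl3, Cxcl2 and the receptors Ccr1 and Ccr3 are red in high-fat SAT and in Azin2-/- GAT replicates 2 to 4. In those GAT libraries Cxcl9 is blue. Cxcl14 is blue in every GAT library, and low-fat SAT replicate 1 differs from its group in many rows. Rows of few counts are noisy.

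After 20 weeks of high-fat diet, 15 chemokine system genes were higher and 1 was lower in SAT, of 42 that passed the filter on low counts. For comparison, 10.8% of all 17066 tested genes were called higher and 10.4% lower (edgeR's quasi-likelihood test, adjusted p under 0.05 over all genes). The median log2 fold change was 0.75 over the 42 members and -0.09 over all tested genes. Without low-fat replicate 1, 21 of 43 members were higher and 3 lower, against 23.5% of all genes in each direction. The rise included ligands of CCR2, of CCR1, of CXCR2 and of CCR4 and the receptors Ccr1 and Ccr3, while Ccl27a fell. Markers of macrophages moved with them: 10 of 12 were higher (11 of 12 without that library), and their summed level was 431.5 to 677.9 CPM in low-fat and 1695 to 2127 CPM in high-fat libraries. Of the lipid-associated macrophage genes 6 of 8 were higher, with sums of 227.9 to 401.4 and 1316 to 1803 CPM. Mast cell genes (4 of 6 higher) summed to 7.39 to 14.3 and 27.1 to 35.1 CPM, and adipose progenitor genes (3 of 6 higher) to 290.2 to 440.6 and 531 to 623.9 CPM. The part of these lists in the chemokine differences was not tested. In whole tissue, more cells of a type and more RNA per cell cannot be told apart.

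Of the CCR2 ligands, which attract monocytes, Ccl8 and Ccl2 rose. Ccl8 was read at 4.28, 1.08, 2.62 and 3.40 normalised CPM in low-fat replicates 1, 3, 5 and 6 and at 25.4, 23.8, 13.8 and 17.25 in high-fat replicates 3 to 6. All high-fat libraries lay above all low-fat libraries, and the log2 fold change was 2.74 (SE 0.45, adjusted p = 0.00606) and 3.08 (SE 0.45) without low-fat replicate 1. Ccl2 stood at 1.04, 6.24, 4.45 and 6.155 on the low-fat and 23.7, 18.65, 17.4 and 15.7 on the high-fat diet, again without overlap. Its change of 2.06 (SE 0.47, adjusted p = 0.0204) missed the threshold without high-fat replicate 3 (0.0635), high-fat replicate 4 (0.0586) or low-fat replicate 5 (0.0557), and was 1.74 (SE 0.18, adjusted p = 0.000195) without low-fat replicate 1. Ccl7 changed by 1.15 (SE 0.51, adjusted p = 0.145) with all libraries and passed without low-fat replicate 1 (0.81, SE 0.23, adjusted p = 0.0191). Ccl12 did not pass in either fit (0.18, SE 0.47, and 0.58, SE 0.40). Their receptor Ccr2 did not pass either, with 0.79 (SE 0.41, adjusted p = 0.195) and 0.53 (SE 0.31, adjusted p = 0.209), its high-fat libraries at 37.2 to 60.15 and low-fat libraries at 9.58 to 46.9 normalised CPM.

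The macrophage inflammatory protein group of ligands, which act in part through CCR1, holds 5 members, all tested, of which Ccl9, Ccl6 and Ccl3 rose. Ccl9 was at 8.10, 22.0, 24.8 and 38.9 normalised CPM in low-fat and 147, 181, 148 and 124 in high-fat libraries, and Ccl6 at 12.1, 32.5, 38.9 and 58.1 against 163, 174, 145 and 134. Neither pair of groups overlapped, and low-fat replicate 1 was the lowest library for both. The log2 fold changes were 2.66 (SE 0.40, adjusted p = 0.00447) for Ccl9 and 2.10 (SE 0.39, adjusted p = 0.00957) for Ccl6, or 2.39 (SE 0.24) and 1.83 (SE 0.22) without that library. Ccl3, a macrophage inflammatory protein, stood at 0.145 to 0.447 on the low-fat and 0.811 to 1.54 on the high-fat diet (2.31, SE 0.40, adjusted p = 0.00737). Ccl4, its neighbour and close relative, gave 1.66 (SE 0.65, adjusted p = 0.108) and passed without low-fat replicate 1 (1.26, SE 0.34, adjusted p = 0.0154). Ccl5, made mainly by T cells, did not pass (0.66, SE 0.32, adjusted p = 0.179).

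Both tested CXCR2 ligands, attractants of neutrophils, rose. Cxcl2 was at 0.104, 0.250, 0.219 and 0.248 normalised CPM in low-fat and 1.26, 1.82, 1.34 and 1.34 in high-fat libraries (2.77, SE 0.29, adjusted p = 0.00132, and 2.57, SE 0.24, without low-fat replicate 1). Cxcl1 was at 0.436, 1.14, 0.765 and 1.29 against 3.71, 3.75, 2.66 and 2.15 (1.73, SE 0.36, adjusted p = 0.0137, and 1.52, SE 0.28). No low-fat library reached any high-fat library for either gene. The 8 neutrophil markers summed to 4.575 to 5.83 CPM in low-fat and 10.9 to 17.8 CPM in high-fat libraries, with Ly6g and Camp at 0 in all high-fat libraries, and their part in this was not tested.

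Ccl22, which draws regulatory T cells through CCR4, was at 0.353, 0.444, 0.929 and 0.695 normalised CPM on the low-fat and 2.63, 2.42, 1.805 and 1.90 on the high-fat diet (1.82, SE 0.32, adjusted p = 0.00751, and 1.66, SE 0.28, adjusted p = 0.00171, without low-fat replicate 1). Cxcl16, a membrane-bound ligand of CXCR6 and a scavenger receptor, changed less, from 10.99, 10.8, 12.7 and 10.6 to 20.45, 21.4, 17.2 and 16.6, without overlap (0.70, SE 0.12, adjusted p = 0.00708, and 0.74, SE 0.12). Exons of Cxcl16 share 18.3% of their bases with Zmynd15 on the opposite strand, and the sources used here do not state the strand setting of the counting. Of the interferon-induced CXCR3 ligands, Cxcl9 did not pass (0.29, SE 0.40, and -0.0041, SE 0.13). Cxcl10 gave 0.94 (SE 0.28, adjusted p = 0.0508) with all libraries, just short of the threshold and without overlap of the groups. Without low-fat replicate 1 it passed (0.86, SE 0.28, adjusted p = 0.0331).

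Ccl27a was the single member that fell. This ligand of CCR10, best known from skin, stood at 7.23, 6.22, 8.61 and 6.85 normalised CPM in low-fat and 2.47, 2.33, 2.37 and 2.52 in high-fat libraries. The log2 fold change was -1.62 (SE 0.15, adjusted p = 0.000892), between -1.70 and -1.53 when any 1 library was left out. Its receptor Ccr10 was too low to be tested with all libraries and fell without low-fat replicate 1 (-2.28, SE 0.45, adjusted p = 0.00368), on 13 to 28 counts in 3 low-fat and 2 to 7 counts in 4 high-fat libraries. Cxcl14 likewise turned on that library: at 13.1, 78.4, 97.2 and 88.4 against 47.9, 53.4, 39.8 and 51.05 normalised CPM, it gave -0.54 (SE 0.49, adjusted p = 0.452) with it and -0.87 (SE 0.11, adjusted p = 0.000457) without it.

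Of the inflammatory CC receptors, Ccr3 and Ccr1 were among those that rose. Ccr3, the eotaxin receptor, rested on 2, 4, 5 and 3 counts in the low-fat libraries and 22 to 36 in the high-fat libraries (3.15, SE 0.35, adjusted p = 0.00152, and 2.93, SE 0.34). Ccr1, the receptor of CCL3, CCL6 and CCL9, was at 2.95, 0.8325, 0.9015 and 2.21 against 7.28, 7.65, 6.22 and 5.73. Its change of 1.875 (SE 0.47, adjusted p = 0.0268) lost the threshold when any of 6 libraries was left out (high-fat replicates 3 to 6, low-fat replicates 3 and 5, adjusted p up to 0.0772), and without low-fat replicate 1 it was 2.34 (SE 0.36, adjusted p = 0.00136). The eotaxins themselves, Ccl11 (0.22, SE 0.61) and Ccl24 (0.24, SE 0.32), did not pass. Without low-fat replicate 1 they gave -0.15 and 0.0077 and did not pass either. Marker genes of eosinophils summed to 0.235 to 0.653 CPM in low-fat and 0.815 to 1.49 CPM in high-fat libraries, with Epx at 0 throughout.

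Of 2 tested lymphocyte CC receptors 1 rose, and of 4 tested CXC receptors 1. Ccr7, which guides dendritic cells and naive T cells to lymph nodes, rose from 0.540, 0.305, 0.328 and 0.844 to 1.92, 1.74, 1.02 and 1.31 normalised CPM (1.51, SE 0.40, adjusted p = 0.0327, and 1.585, SE 0.41, without low-fat replicate 1). It missed the threshold without high-fat replicates 3, 4 or 6 or low-fat replicates 3 or 5 (adjusted p up to 0.0943). Cxcr5, the B cell receptor of CXCL13, rose by 0.94 (SE 0.26, adjusted p = 0.0406, and 1.02, SE 0.30) and missed it without high-fat replicates 3, 4 or 5 or low-fat replicates 3, 5 or 6 (up to 0.117). B cell genes moved beside it: 3 of 8 were higher (7 of 8 without low-fat replicate 1), with sums of 4.23 to 10.0 CPM in low-fat and 14.25 to 18.3 CPM in high-fat libraries, and their part was not tested. Cxcr3 (0.54, SE 0.35, adjusted p = 0.291) and Cxcr6 (0.13, SE 0.38) did not pass.

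Ackr1, carried by venular endothelium and red blood cells and a binder of many inflammatory chemokines, was at 2.06, 4.80, 4.999 and 4.44 normalised CPM on the low-fat and 13.7, 8.79, 9.22 and 11.5 on the high-fat diet. The groups did not overlap, and the change was 1.38 (SE 0.27, adjusted p = 0.0119), or 1.18 (SE 0.17, adjusted p = 0.000667) without low-fat replicate 1. Endothelial genes (1 of 9 higher, 4 of 9 without that library) summed to 546.2 to 1729 CPM in low-fat and 1970 to 2177 CPM in high-fat libraries. Without low-fat replicate 1 the low-fat sums were 1513 to 1729 CPM. The part of these genes was not tested. Ackr1 shares 25.7% of its exon bases with Cadm3 on the same strand, so some of its reads may belong to that gene. Without the same library, Ackr2 (0.78, SE 0.22) and Ccrl2 (0.38, SE 0.10) also rose, which with it gave 1.00 (SE 0.33, adjusted p = 0.0677) and 0.60 (SE 0.27, adjusted p = 0.149). Ackr3 did not pass in either fit (0.35, SE 0.15, and 0.28, SE 0.14).

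**Figure D2:**
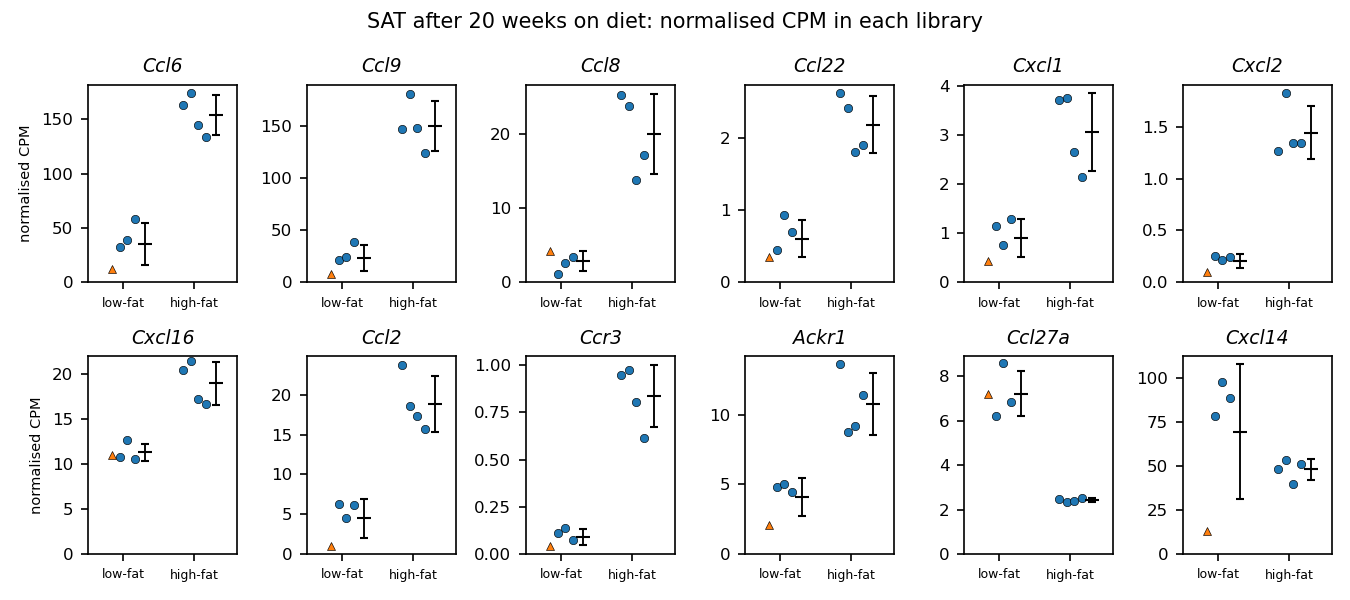
Normalised CPM of 12 members in each low-fat and high-fat SAT library (points, n = 4 per group; orange triangle, low-fat replicate 1; line and bar, mean ± SD of all 4). For Ccl6 the low-fat libraries lie at 12.1 to 58.1 and the high-fat libraries at 134 to 174, Ccl27a is lower in every high-fat library, and for Cxcl14 low-fat replicate 1 alone (13.1) lies below the high-fat group.

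Lists of genes that act with chemokines were read against the 10.8% of all genes called higher and 10.4% called lower with diet. Of 29 genes of chemokine receptor signalling, 14 were higher and 1, Plcb3, was lower (20 and 1 without low-fat replicate 1), with a median log2 fold change of 0.78. Vav1, an exchange factor for Rac, changed by 1.72 (SE 0.15) and Rgs10, a brake on G protein signalling, by 1.53 (SE 0.16). Of 15 tested inducers of chemokine genes, Tlr2 (1.16, SE 0.10), Nfkb2 (0.57, SE 0.08) and Tnf (1.16, SE 0.33, adjusted p = 0.0424) were higher and none was lower. Among 12 proteases and surface glycan genes that trim, shed or hold chemokines, Adam17 (0.67, SE 0.07), Mmp14 (1.02, SE 0.11) and Mmp12 (6.22, SE 0.80) were higher and none lower. Of 9 tested chemokine-like genes 2 were higher and none lower, the complement receptor C5ar1 (1.87, SE 0.29) and the chemerin receptor Gpr1 (1.44, SE 0.36). With all libraries the last 3 lists count 2 or 3 genes each, and nothing is read from them. Without low-fat replicate 1, when 23.5% of all genes were called in each direction, 6 of the 15 inducers were higher and 0 lower. Of the 12 protease and glycan genes 9 were then higher and 2 lower, and of the 9 chemokine-like genes 4 and 2.

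The diet changes were laid out along the chromosomes, since most inflammatory members sit in clusters of duplicated genes. On chromosome 11, the cluster from 82035571 to 82305690 holds Ccl2, Ccl7, Ccl11, Ccl12, Ccl8 and Ccl1. There Ccl2 and Ccl8 rose (and Ccl7 without low-fat replicate 1), Ccl11 and Ccl12 between them did not pass, and Ccl1 was too low to test. The neighbouring cluster from 83525778 to 83664683 holds Ccl5, Ccl9, Ccl6, Ccl3 and Ccl4, of which 3 rose, and 4 without low-fat replicate 1. In the receptor cluster of chromosome 9, Ccr1 and Ccr3 rose, whereas Ccr9, Cxcr6, Xcr1 and Ccr2 did not pass. On chromosome 5, between 90759360 and 90905938, both tested genes, Cxcl1 and Cxcl2, rose, while Cxcl5, Cxcl3 and Cxcl15 were too low to be tested.

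**Figure D3:**
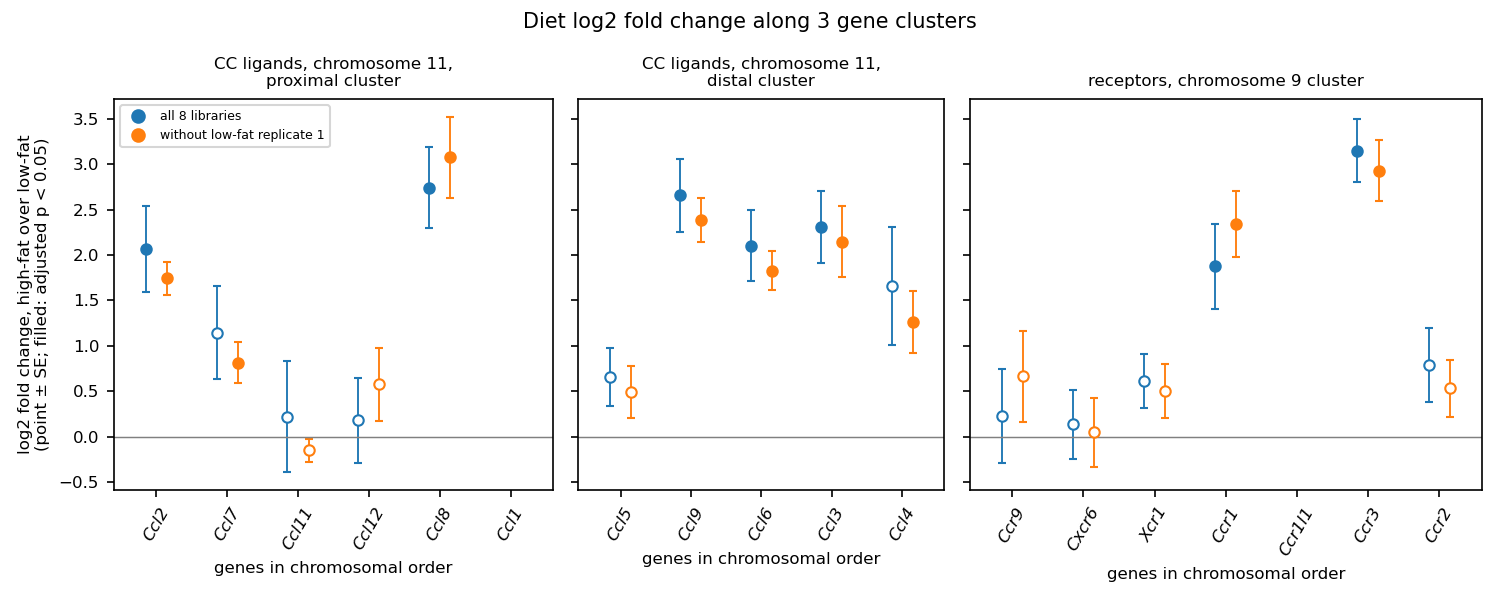
Log2 fold change with diet (point ± SE, high-fat over low-fat) of the members of 3 gene clusters, in chromosomal order, with all 8 libraries (blue) and without low-fat replicate 1 (orange); filled points passed the test and genes without points were too low to test. Ccl8 (2.74), Ccl9 (2.66) and Ccr3 (3.15) stand highest of the points with all libraries in their clusters, and Ccl11 and Ccr2 did not pass.

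Azin2-/- and wild-type GAT, a visceral fat depot, were compared after 8 weeks of high-fat diet. Of 44 tested members 6 were higher and 2 lower in Azin2-/- GAT, where 5.45% of all 16778 tested genes were called higher and 1.32% lower. The median log2 fold change was 0.485 over the members and -0.03 over all genes. The higher members included Ccl9, Ccl8, Ccr3, Ccr1 and Ccl6, and the lower ones Cxcr5 and Ccl27a. These calls depended on single libraries. No member was called without Azin2-/- replicate 2, 3 or 4 or wild-type replicate 2 or 4, when 0 or 1 genes in all passed. In those fits, of 44 or 45 members tested, 16 to 21 had an unadjusted p under 0.05 (edgeR). So did 3300 to 4081 of the 17025 to 17109 genes tested. With edgeR's filter on low counts left off, 0 members and 0 genes passed. An unadjusted p under 0.05 was then held by 21 of 57 members and 5269 of 30262 genes. With the filter, DESeq2 called 19 members (43.2%, against 18.4% of all genes) and limma-voom 26 (59.1%, against 38.5%). There were 3 calls among the members without wild-type replicate 3 (6.82% of those tested, against 7.94% of all genes). Without wild-type replicate 1 there were 12 (27.3%, against 9.86%), and without Azin2-/- replicate 1 there were 15 (33.3%, against 15.7%). Macrophage genes moved with the members: 9 of 12 were higher, with sums of 1202 to 1790 CPM in wild-type and 2133 to 4385 CPM in Azin2-/- libraries. Lipid-associated macrophage genes summed to 640.7 to 1604 and 1586 to 4332 CPM. Their part in the differences was not tested.

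Ccr3 was at 0.736, 0.480, 0.351 and 0.366 normalised CPM in wild-type replicates 1 to 4 and at 0.610, 2.36, 2.14 and 1.90 in the libraries labelled Azin2-/- replicates 1 to 4 (1.82, SE 0.44, adjusted p = 0.04595), and Ccr1 stood at 7.38, 6.12, 5.34 and 5.60 against 7.11, 13.6, 12.3 and 10.8 (0.82, SE 0.20, adjusted p = 0.0478). For Ccr3 and Ccr1 alike, Azin2-/- replicate 1 fell within the wild-type range. Ccr2 did not pass (0.76, SE 0.28, adjusted p = 0.125), at 114.5, 58.8, 39.35 and 61.8 in wild-type and 101.5, 109.6, 118 and 139.9 in Azin2-/- libraries.

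Among ligands, Ccl9 was at 116, 159, 87.6 and 89.5 normalised CPM in wild-type and 149, 371, 411 and 293 in Azin2-/- GAT (1.41, SE 0.32, adjusted p = 0.04115). Ccl6 was at 148, 162, 97.0 and 114 against 157, 299, 370.0 and 258.5 (1.04, SE 0.26, adjusted p = 0.049). Both overlapped through the library labelled Azin2-/- replicate 1, without which they gave 1.64 (SE 0.23) and 1.22 (SE 0.20). Ccl8 did not overlap, at 5.04, 2.325, 5.66 and 2.785 against 8.30, 9.04, 12.2 and 11.3 (1.34, SE 0.30, adjusted p = 0.0418). Ccl2 had a larger fold change and a larger SE, with 32.5, 17.4, 7.33 and 8.13 against 32.0, 66.6, 53.2 and 66.4 (1.72, SE 0.48, adjusted p = 0.0652). It passed without Azin2-/- replicate 1 (1.90, SE 0.51, adjusted p = 0.0484) and without wild-type replicate 1 (2.29, SE 0.39, adjusted p = 0.0328). Ccl3 (1.88, SE 0.49, adjusted p = 0.0544) and Ccrl2 (0.64, SE 0.16, adjusted p = 0.0516) lay just short of the threshold.

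Cxcr5 fell in Azin2-/- GAT, from 1.135, 1.365, 2.11 and 1.575 to 0.557, 0.437, 0.306 and 0.179 normalised CPM (-2.08, SE 0.37, adjusted p = 0.0408), with no overlap. Its ligand Cxcl13 did not pass (-1.73, SE 0.64, adjusted p = 0.125). Some B cell genes moved in the same direction as Cxcr5: Cd79a (-1.78, SE 0.39) and Ms4a1 (-2.03, SE 0.46) were among 3 of 8 tested that were lower. The sums of the 8 genes were 14.5 to 42.75 CPM in wild-type and 13.4 to 18.1 CPM in Azin2-/- libraries. The highest sum belongs to wild-type replicate 3, the library with epididymis transcripts. The other wild-type libraries held 14.5 to 20.9 CPM, which overlaps the Azin2-/- range. Genes of lymph node summed to 2.28 to 13.4 CPM and 1.65 to 3.55 CPM, and the part of either list was not tested. Ccl27a fell from 4.56, 5.965, 7.33 and 6.05 to 3.90, 2.67, 3.585 and 3.47 (-0.83, SE 0.20, adjusted p = 0.0452).

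**Figure D4:**
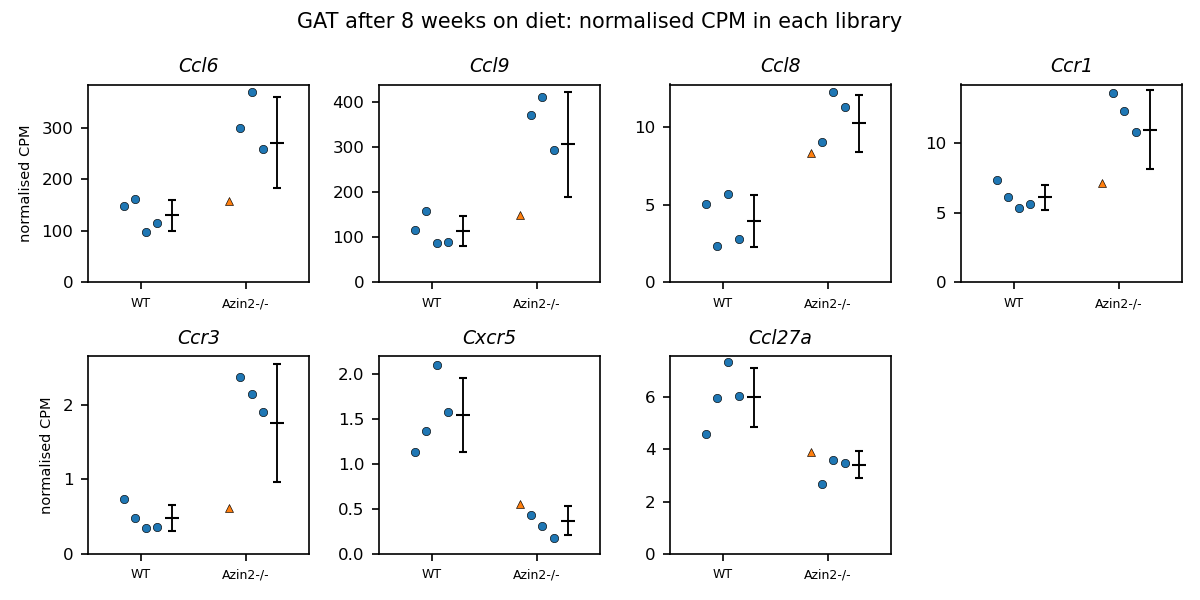
Normalised CPM of members called in GAT, in each wild-type and Azin2-/- library (points, n = 4 per group; orange triangle, the library labelled Azin2-/- replicate 1; line and bar, mean ± SD of all 4). For Ccl6, Ccl9, Ccr1 and Ccr3 the triangle lies within the range of the wild-type points (Ccr1 7.11, against 10.8 to 13.6 in the other Azin2-/- libraries), and Cxcr5 and Ccl27a are lower in every Azin2-/- library.

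Of the gene lists around the chemokines, 14 of 29 genes of chemokine receptor signalling were higher in Azin2-/- GAT and none lower, among them Gng2 (0.71, SE 0.13), Vav1 (1.41, SE 0.29) and Dock2 (1.44, SE 0.28), which links receptors to Rac in leukocytes. Of 14 tested inducers, Tlr2 was higher (0.95, SE 0.21) and the lymphotoxin gene Ltb lower (-0.97, SE 0.21). Of 12 protease and glycan genes 4 were higher, including Mmp2 (0.63, SE 0.12), Mmp14 (0.61, SE 0.13) and Adam17 (0.67, SE 0.14). Pf4, the platelet chemokine whose symbol lies outside the rule, was higher as well (0.73, SE 0.16, adjusted p = 0.0409), as was C5ar1 (1.64, SE 0.37, adjusted p = 0.0422).

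In SAT the same genotypes gave no call. Of 43 tested members 0 passed with edgeR, where 0.0059% of all genes (1 of 16948) were called. An unadjusted p under 0.05 was held by 6 of the 43 members and by 1745 of the 16948 genes. DESeq2's Wald test called 4 (Ackr2 and Ccl24 lower, Cxcl14 and Ccr3 higher), while it called 1.99% of all genes, and limma-voom called 1 (Cxcl10, higher), at 1.76% of all genes. With edgeR, Ackr2, a scavenger of inflammatory CC chemokines, gave -1.11 (SE 0.28, adjusted p = 0.282), with 5.42, 4.69, 7.44, 9.945 and 9.18 normalised CPM in wild-type replicates 1 to 5 and 3.90, 3.599 and 2.78 in Azin2-/- replicates 1 to 3. Cxcl14 gave 0.47 (SE 0.12, adjusted p = 0.281), with 64.3, 61.6, 69.1, 49.7 and 71.4 against 84.4, 96.1 and 84.7. Neither pair of groups overlapped. Ccr3 rested on 2 to 8 counts in wild-type and 11 to 23 counts in Azin2-/- libraries. Ccl2 stood at 12.2, 18.9, 4.20, 4.83 and 4.065 against 32.6, 9.06 and 9.03 (0.93, SE 0.68, adjusted p = 0.669). The macrophage genes summed to 641.8 to 1253 CPM and 641.9 to 1307 CPM, ranges that overlap almost entirely.

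Whether the genotype effect differed between the depots was tested with the interaction term. With edgeR 0 of 47 members and 0.0% of 18033 genes passed. An unadjusted p under 0.05 was held by 7 of the 47 members and by 2016 of the 18033 genes. The member of smallest p was Ackr2 (1.36, SE 0.37, adjusted p = 0.312). DESeq2 called 1 member, Ackr2 (0.876% of all genes), and limma-voom 13 members (15.1% of all genes). The calls in GAT are thus not shown by edgeR to be particular to GAT.

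The depots were compared within each genotype. In wild-type mice 2 members were higher in GAT and 2 lower, of 42 tested, beside 2.47% of all 17030 genes higher and 1.87% lower. In Azin2-/- mice 13 were higher and 2 lower, of 44 tested, beside 9.13% and 6.04% of all 16800 genes. These comparisons share no libraries with each other but share them with the genotype comparisons. GAT libraries held mesothelium genes at 30.4 to 498.8 CPM in sum, against 0.924 to 3.45 CPM in 8-week SAT, and their part in the depot differences was not tested.

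Cxcl14, a chemokine of epithelia and stroma whose signalling receptor is not settled, had the smallest p between the depots in both genotypes. It was at 64.3, 61.6, 69.1, 49.7 and 71.4 normalised CPM in wild-type SAT and 6.47, 7.08, 12.2 and 6.13 in wild-type GAT, and at 84.4, 96.1 and 84.7 against 8.46, 10.5, 14.9 and 7.74 in Azin2-/- mice. All 8 GAT libraries thus lay below all 16 SAT libraries, low-fat SAT replicate 1 (13.1) excepted, which lay within the GAT range. The log2 fold change was -2.97 (SE 0.23, adjusted p = 0.000545) in wild-type and -3.09 (SE 0.23, adjusted p = 0.00294) in Azin2-/- mice, 7.83-fold and 8.52-fold lower, and the call held without each library in turn. Some animal marks recur in the titles of SAT and GAT libraries, and the labels do not say whether they stand for the same animals. With the mark as a replicate block, edgeR called 0 of the 42 wild-type members and 0 genes in all, and Cxcl14 gave an adjusted p of 0.0755. An unadjusted p under 0.05 was held by 14 of these members and by 2232 of 17030 genes. In Azin2-/- mice the same block called 13 members (29.5%, against 6.54% of all genes), with an adjusted p of 0.0126 for Cxcl14.

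Ackr4, the scavenger of CCL19, CCL21 and CCL25, was higher in GAT. Wild-type SAT held 1.45, 1.18, 1.56, 2.49 and 1.20 normalised CPM and wild-type GAT 2.44, 5.74, 19.8 and 5.60 (2.44, SE 0.55, adjusted p = 0.0419). The groups overlapped at wild-type GAT replicate 1, and the high value belongs to replicate 3, the GAT library with epididymis transcripts. Low-fat SAT replicate 1, the other library with such transcripts, held 9.91, against 0.777 to 0.968 in the rest of its group. Without wild-type GAT replicate 3 the change was 1.54 (SE 0.34, adjusted p = 0.0347), and the call was lost in 7 of the 9 fits that left out 1 library (every SAT library, GAT replicates 2 and 4, adjusted p up to 0.11). In Azin2-/- mice it was 2.28 (SE 0.47, adjusted p = 0.0256), with 0.898, 0.8515 and 0.556 against 6.07, 4.03, 3.28 and 1.63. Its ligand gene Ccl21a was at 2.69, 0.104, 0.174, 0.904 and 0.542 in wild-type SAT and 6.01, 1.97, 7.84 and 5.43 in wild-type GAT (2.60, SE 0.85, adjusted p = 0.128). In Azin2-/- mice the values were 0.154, 0.658 and 0 against 14.7, 23.7, 0.361 and 16.5 (5.79, SE 1.56, adjusted p = 0.0486), a call lost without any library other than GAT replicate 3. Lymphatic endothelium genes, whose cells make CCL21, summed to 30.1 to 62.5 CPM in 8-week SAT and 38.0 to 81.6 CPM in GAT, and their part was not tested.

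Ackr1 was lower in wild-type GAT, at 5.65, 5.91, 3.39 and 4.61 normalised CPM, than in wild-type SAT, at 11.6, 9.63, 7.87, 8.70 and 8.64 (-0.92, SE 0.18, adjusted p = 0.0253). The groups did not overlap, but the call was lost without GAT replicate 4 or SAT replicate 1, 4 or 5 (adjusted p up to 0.0742). Ackr1 gave -0.13 (SE 0.28, adjusted p = 0.769) in Azin2-/- mice. Ccr3 was higher in wild-type GAT (2.11, SE 0.38, adjusted p = 0.0176) on 13 to 35 counts against 2 to 8 in SAT, and missed the threshold without GAT replicate 2 (0.0532). In all, 2 members were called without wild-type GAT replicate 2, GAT replicate 4 or SAT replicate 5. These were 4.44%, 4.44% and 4.76% of those tested, beside 1.71%, 2.23% and 2.13% of all genes. Without GAT replicate 3, where Xcr1, Cxcl16 and Ackr3 joined, 7 were called (15.9%, against 5.29% of all genes). Without the 2 libraries that hold muscle or epididymis transcripts, 4 were higher and 2 lower (14% of those tested, against 6.67% of all genes).

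In Azin2-/- mice the members higher in GAT included Ccr1, Ccr2, Cxcl16, Cx3cr1, Ccl22, Ackr4, Ccl6, Ccl3, Ccr3, Ccl9, Ackr3 and Ccl21a. Ccr2 was at 59.8, 32.05 and 31.1 normalised CPM in SAT and 101.5, 109.6, 118 and 139.9 in GAT (1.51, SE 0.26, adjusted p = 0.0189). Cx3cr1, the fractalkine receptor of monocytes and macrophages, was at 1.62, 2.17 and 1.25 against 4.24, 5.06, 5.003 and 8.84 (1.78, SE 0.33, adjusted p = 0.0207). Cxcl9 went the other way, at 58.9, 36.6 and 64.2 against 25.5, 23.0, 26.35 and 27.7 (-1.06, SE 0.18, adjusted p = 0.0195). For these 3 genes the depots did not overlap. Of the 12 macrophage genes 10 were higher in GAT, and their sums were 641.9 to 1307 CPM in SAT and 2133 to 4385 CPM in GAT. Of the 29 genes of chemokine receptor signalling 17 were higher and none lower, among them Plcb2 (1.74), the phospholipase, and Pik3cg (1.45), the lipid kinase, that G proteins activate in leukocytes; in wild-type mice 2 of 29 were higher (Pik3r5 and Ptk2b). The calls of members again rested on few libraries: without GAT replicate 2 or SAT replicate 3 Cxcl14 alone was called, without GAT replicate 3 also Ccl21a, and without GAT replicate 4 also Ackr4. Calls were lost over all genes as well, where 15.2% passed with all libraries. The shares were 0.217% without GAT replicate 2, 0.233% without SAT replicate 3, 1.67% without GAT replicate 3 and 1.31% without GAT replicate 4. Azin2-/- SAT replicate 2, 1 of only 3 SAT libraries here, held the most skeletal muscle transcripts (61190 CPM). Without it 10 members were called, beside 14.7% of all genes, and Ccl6, Ccl9, Ccl3, Ccr3, Ackr3 and Ccl21a no longer passed.

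**Figure D5:**
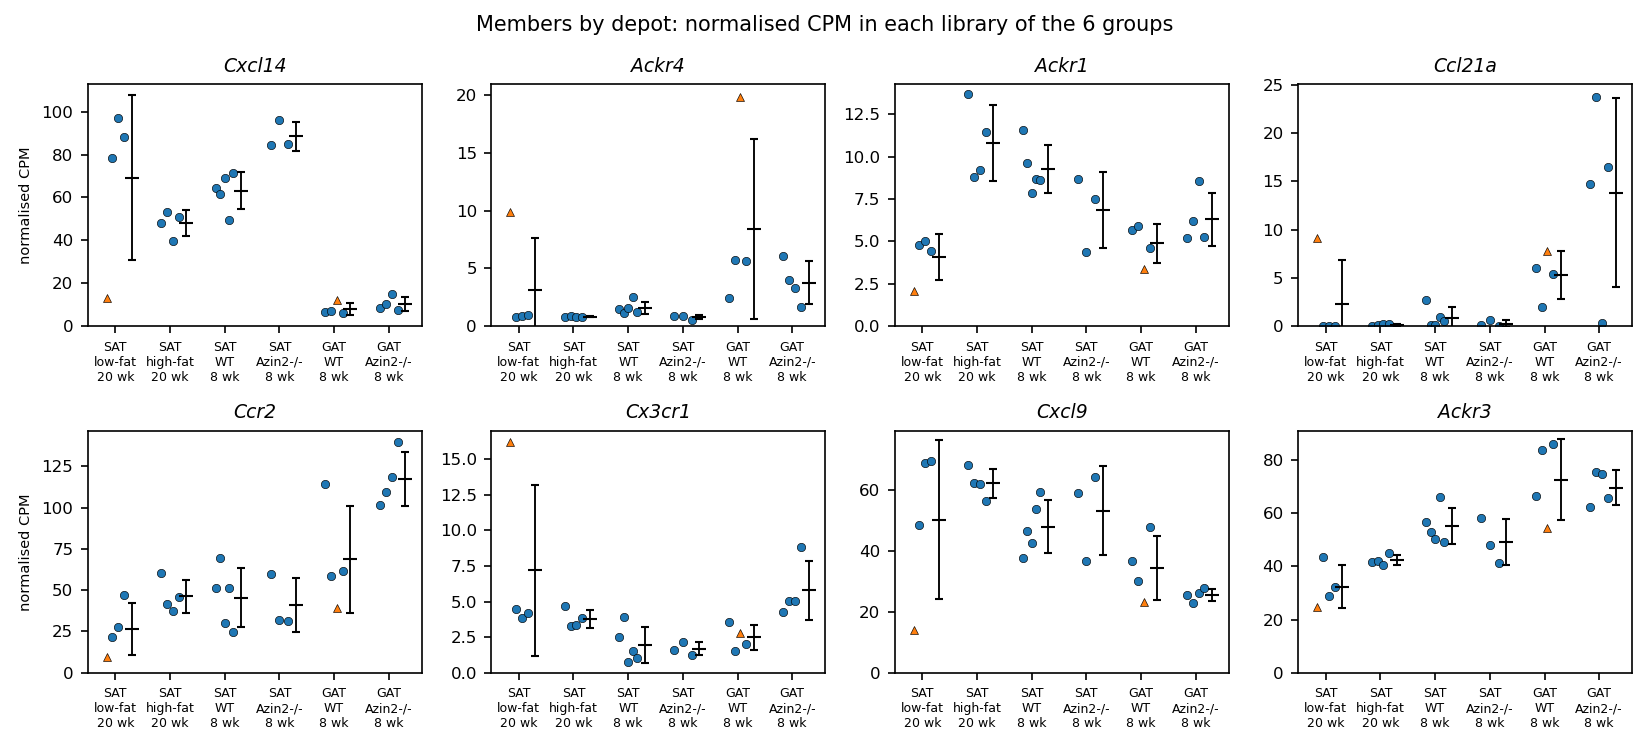
Normalised CPM of 8 members in each library of the 6 groups (points; orange triangles, the libraries with epididymis transcripts, low-fat SAT replicate 1 and wild-type GAT replicate 3; line and bar, mean ± SD of all libraries of the group, the bar ending at 0 where it would pass it). Cxcl14 lies at 6.13 to 14.9 in GAT and 39.8 to 97.2 in SAT other than low-fat replicate 1, Ackr4 is highest in both triangles, and Ccr2 lies at 101.5 to 139.9 in Azin2-/- GAT and at or below 69.6 elsewhere, except in wild-type GAT replicate 1 (114.5).

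The CXCL12 and CX3CL1 axes were followed across all 6 groups. Cxcl12, the stromal ligand of CXCR4 and ACKR3, had a mean of 189 ± 64.3 normalised CPM in low-fat SAT (n = 4; 221 ± 16.6 without replicate 1), 248 ± 15.3 in high-fat SAT, 223 ± 18.75 in wild-type SAT (n = 5), 218 ± 54.5 in Azin2-/- SAT (n = 3), 192 ± 43.7 in wild-type GAT and 275 ± 42.4 in Azin2-/- GAT. It was called in none of the 5 comparisons with edgeR, with log2 fold changes from -0.21 (SE 0.15) between wild-type depots to 0.50 (SE 0.18, adjusted p = 0.111) between genotypes in GAT. Cxcr4 was called only for diet without low-fat replicate 1 (0.64, SE 0.16, adjusted p = 0.0109), that library holding 2.91 against 12.2 to 18.2 normalised CPM in the rest of its group. Ackr3 was higher in Azin2-/- GAT than in Azin2-/- SAT (0.495, SE 0.13, adjusted p = 0.0485) and gave 0.41 (SE 0.14, adjusted p = 0.139) between the wild-type depots. Cx3cl1, a ligand anchored in the membranes of endothelium, neurons and epithelia, was at 44.5 normalised CPM in low-fat SAT replicate 1 and 15.35 in wild-type GAT replicate 3, and at 6.05 to 11.1 in all other libraries. Its diet change was -0.87 (SE 0.63, adjusted p = 0.343) with low-fat replicate 1 and 0.25 (SE 0.14, adjusted p = 0.164) without it. Cx3cr1 followed in low-fat replicate 1 (16.2, against 3.825 to 4.495 in its group).

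The lymphoid chemokines were low and uneven. Cxcl13, the B cell attractant, was at 8.34 normalised CPM in wild-type SAT replicate 3, 4.68 in wild-type GAT replicate 3 and 3.77 in Azin2-/- SAT replicate 1, against 0.2075 to 3.22 elsewhere, and passed no test. Ccl19 and Ccl17 had means below 1 normalised CPM in each group, and Ccr7 reached its highest single value, 2.08, in Azin2-/- GAT replicate 2.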

How the data were processed

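The submitters' processing notes name cutadapt, STAR and HTSeq 0.6.1p1 and the builds GRCm38 and mm10, without saying what each was used for. The sources used here do not state the strand setting of the counting. The deposited values are raw read counts per gene in 24 libraries of 31957480 to 46621108 counts. From these, normalised CPM were computed with TMM factors over all libraries. Each pair of groups was fitted with edgeR 4.0.16 (R 4.3.3, quasi-likelihood, robust) over genes passing filterByExpr (minimum count 10, minimum total 15), with Benjamini-Hochberg adjustment over all genes and a threshold of 0.05. DESeq2 1.42.0, limma-voom (limma 3.58.1), other filters and scalings, a replicate block and leaving out each library were alternatives. A member was given in every library where it was among up to 8 of smallest p per direction, where its mean log2 CPM was 0 or more, or among 12 given whatever their p. Other members given with values, such as Ccr3 for diet, were picked after their values were seen. Members and lists were chosen with earlier results of these data known. The fits were tested on simulated counts in which few genes changed. For diet 98 genes changed 2-fold and 97 changed 4-fold, of 16822 tested, whereas 3622 of 17066 genes were called in the data. Of simulated 2-fold changes the fits recovered 15.3% for diet, 33.7% for genotype in SAT and 52% for genotype in GAT. Between depots they recovered 60.6% in wild-type and 36% in Azin2-/- mice. Of 4-fold changes 72.2% to 83.7% were recovered. These shares hold for simulations with few changed genes and need not be those of the real fits. A gene that did not pass may thus still differ. Protein sequences were not used here, and some genes counted in the totals are not reported here.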

Additional observations from a re-analysis of the deposited data

Results flagged for a closer look

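In 120 groups of 4 or 5 libraries, over 24 members, 8 held a library farther from the rest than Dixon's limit at 95% allows. Chance alone sets apart about 1 group in 20. All values here are normalised CPM.

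Low-fat SAT replicate 1, the library with epididymis transcripts, accounted for 4 of the 8. It held Ackr4, the scavenger of CCL19 and CCL21, at 9.91 against 0.777 to 0.968 in the other low-fat libraries. Ccl21a stood at 9.10 against 0 to 0.0555, Cx3cl1 at 44.5 against 7.30 to 11.04, and Cx3cr1 at 16.2 against 3.825 to 4.495. Wild-type GAT replicate 3, which also held epididymis transcripts, had Cxcl14 at 12.2 against 6.13 to 7.08 in its group.

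The library labelled Azin2-/- GAT replicate 1 held Ccl22 at 2.31 against 2.89 to 3.01. In wild-type SAT, replicate 4 held Cxcr5 at 1.215 against 0.1665 to 0.394, and its B cell genes summed to 35.7 CPM. High-fat SAT replicate 4 held Ackr4 at 0.869 against 0.805 to 0.815, where the other libraries happened to lie close together.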

How the results depend on the processing

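Over the members given by name, 1246 values under alternatives kept their direction and side of the threshold, 39 newly passed it, 142 no longer did, and 48, over 20 differences, changed sign, with 0 of the 48 past the threshold before or after. For diet the number of members called stayed within 1.5 times of 16 under each planned setting. It ranged from 12 to 24 when 1 library was left out, while 10.3% to 47% of all genes were called. For genotype in GAT (8 called) DESeq2 called 19, limma-voom 26, edgeR without the low-count filter 0 and with the replicate block 14 (10.2% of all genes). Leaving out 1 library gave 0 to 15, beside 0% to 15.7% of all genes. For genotype in SAT (0 called) DESeq2 called 4 and limma-voom 1. Between wild-type depots (4 called) DESeq2 called 11 (10.5% of all genes), limma-voom 10 (14.6% of all genes) and the replicate block 0. Leaving out 1 library gave 2 to 7, beside 1.71% to 5.29% of all genes. Between Azin2-/- depots (15 called) limma-voom called 23 (39.5% of all genes). Leaving out 1 library gave 1 to 18, beside 0.217% to 19.9% of all genes. For the interaction (0 called) DESeq2 called 1 and limma-voom 13. The causes were not tested. Shared replicate numbers and animal marks were not taken to pair the libraries, since the correlation of their deviations was not over 0.1 in every one of 3 or more pairs: it ran from -0.139 to 0.309 for diet, -0.202 to 0.11 for GAT, -0.0581 to 0.196 and -0.0644 to 0.0453 between depots, and 0.58 to 0.871 in SAT, where 2 pairs are too few to decide. With the replicate block 19 members were called for diet, 0 for genotype in SAT and 13 between Azin2-/- depots, beside 34.4%, 0% and 6.54% of all genes.

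Mean library size did not pass a two-sided exact permutation test between any pair of groups (p from 0.171 to 0.730). Leaving out 1 library, an alternative added after seeing the data, moved the difference in GAT between genotypes (-1.40 megareads, Azin2-/- minus wild-type) over -3.44 to 0.717 megareads, and that between wild-type depots (1.09 megareads, GAT minus SAT) over -1.02 to 3.002 megareads, with -0.323 megareads without SAT replicate 5. DESeq2 called 18.4% of all genes for genotype in GAT, limma-voom 38.5% and edgeR 6.77%. Depth limits what can be said of the 14 members with under 100 counts.

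Among the members followed over all alternatives, the log2 fold changes that changed sign were the following, each with its range over leaving out 1 library. The name stray-tissue libraries stands for those with muscle or epididymis transcripts and does not say which depot they came from. For diet Cx3cl1 (-0.87) ranged from -1.11 to 0.25 and gave 0.30 with limma-voom, 0.28 with the replicate block, 0.23 without the stray-tissue libraries. Cxcl13 (-0.24) ranged from -0.50 to -0.067 and gave 0.078 with the replicate block. For genotype in SAT Ccr2 (-0.16) ranged from -0.54 to 0.045 and gave 0.18 with the replicate block. Cx3cl1 (-0.093) ranged from -0.18 to -0.00033 and gave 0.14 with the replicate block. Cx3cr1 (-0.23) ranged from -0.45 to 0.19 and gave 0.86 with the replicate block. Cxcl12 (-0.047) ranged from -0.21 to 0.15 and gave 0.050 with limma-voom, 0.18 without the stray-tissue libraries. Cxcl13 (-0.64) ranged from -2.23 to 0.61 and gave 0.33 with limma-voom, 0.98 without the stray-tissue libraries. Cxcr4 (0.10) ranged from -0.056 to 0.25. For genotype in GAT Ackr3 (-0.082) ranged from -0.19 to 0.0026. Ccr7 (0.12) ranged from -0.12 to 0.23. Cx3cl1 (-0.22) ranged from -0.37 to 0.18 and gave 0.15 with limma-voom. Between wild-type depots Cx3cl1 (0.25) ranged from -0.14 to 0.41 and gave -0.20 with limma-voom, -0.22 without the stray-tissue libraries. Cx3cr1 (0.35) ranged from 0.13 to 0.78 and gave -0.091 with limma-voom. Cxcl13 (-0.13) ranged from -0.76 to 1.12 and gave 1.42 with limma-voom, 0.48 without the stray-tissue libraries. Between Azin2-/- depots Ackr1 (-0.13) ranged from -0.37 to 0.081 and gave 0.34 with the replicate block. Cxcl13 (-1.23) ranged from -1.67 to 0.37. For the interaction Ackr3 (0.094) ranged from -0.018 to 0.23 and gave -0.00012 without the stray-tissue libraries. Cx3cl1 (-0.12) ranged from -0.27 to 0.27 and gave 0.35 with limma-voom, 0.27 without the stray-tissue libraries. Cxcl13 (-1.09) ranged from -2.32 to 0.49 and gave 0.070 with the replicate block. Cxcl14 (-0.11) ranged from -0.35 to 0.18 and gave 0.090 with limma-voom, 0.17 with the replicate block, 0.21 without the stray-tissue libraries.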

Other observations

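Cxcl11, an interferon-induced ligand of CXCR3 left out of the 61 genes because the annotation calls it a polymorphic pseudogene, was read at 0 to 0.373 CPM over the 24 libraries. Its paralogs Cxcl9 and Cxcl10 on the same chromosome are protein-coding in that annotation.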
